A study of Mus musculus with 4 samples.

Results

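Endothelial cells form the single-layered lining of the aorta, and 10 genes that mark these cells or build the contacts between them were followed here: Cldn5, Cdh5, Pecam1, Icam2, Kdr, Flt1, Tek, Tie1, Eng and Vwf. They were chosen by name, with earlier results of these data known. Every probe set of the array that the platform's probe table assigns to 1 of these genes alone was taken. This gave 13 probe sets of 12422, for 10 of the 8251 genes named on the array. Of these, 3 genes (Tie1, Flt1 and Vwf) had 2 probe sets each and 7 had 1. The tested animals were adult male mice of the C57BL/6J strain that received rosiglitazone, a thiazolidinedione agonist of the nuclear receptor PPARγ, at 25 mg/kg/day for 21 days. The comparison animals, of the same strain, sex and age class, received vehicle for 21 days. Aortic RNA was pooled across mice before hybridisation, with 2 arrays per group, numbered 1 and 2 for rosiglitazone and 3 and 4 for vehicle. The sources used here do not say whether the paired arrays were hybridised with separate pools, so errors and p-values measure the spread between arrays, which may be technical.

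Endothelial cells are held together by adherens junctions, whose cadherin is VE-cadherin, and by tight junctions, whose main claudin in endothelium is claudin-5. Their growth and quiescence are set by receptor tyrosine kinases for vascular endothelial growth factors (VEGF) and for angiopoietins, and by endoglin, a co-receptor for ligands of the TGF-β and BMP family. In a whole-vessel extract these transcripts come from a minority of the cells, so fewer endothelial cells and less RNA per cell cannot be told apart. The extract also held bright adipocyte markers (given below), and which vessels the endothelial transcripts came from was not tested.

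The values are deposited hybridisation intensities on a linear scale, and folds and errors below were computed on log2 intensity after values under 148 were set to 148. Array medians were 591 and 620 with rosiglitazone, against 648 and 635 with vehicle. Across the 7134 probe sets bright enough to be tested, the correlation of log2 intensity across genes was 0.881 for the rosiglitazone pair, 0.892 for the vehicle pair and 0.855 to 0.866 between groups. The ratio of 3′ to 5′ Gapdh signal, a gauge of RNA integrity, was 8.79 and 10.8 with rosiglitazone and 11.1 on both vehicle arrays, without overlap. The same ratio for actin was 7.74 and 9.62 with rosiglitazone, against 8.88 and 11.9 with vehicle, with overlap. On every array the 3′ signal of both genes was thus at least 7.74 times the 5′ signal. The part of RNA integrity in the results was not tested.

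All 10 genes had at least 1 probe set above the brightness limit of 414 on the mean over the 4 arrays, so none of the defining genes of endothelium was among the dim ones on every probe set. This limit is a percentile of the values and not a measure of background. The probe sets left out were the dimmer ones of Vwf and Flt1, with mean intensities of 162 and 275. The dimmest probe sets that were kept were those of Pecam1 at 469 and Tie1 at 500.3.

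The tight junction gene Cldn5 stood higher with rosiglitazone, and the other endothelial genes lay on both sides of 0. Cldn5 had a 2.74-fold higher level and did not pass the adjusted threshold of 0.05, and of the other 10 member probe sets tested 7 had a fold change below 0, as did 51.9% of all probe sets tested. No member probe set (0 of 11) passed that threshold in limma, which 26 of 7134 probe sets, or 0.364%, passed. At an unadjusted p under 0.05 there were 2 of 11, Cldn5 higher and 1 probe set of Tie1 lower, against 10.9% of all probe sets. The groups did not overlap for 2 member probe sets that were higher and 5 that were lower, against 19.0% and 21.8% of all probe sets tested. The median log2 fold change was -0.23 over the 11 member probe sets and -0.02 over all 7134.

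**Figure D1:**
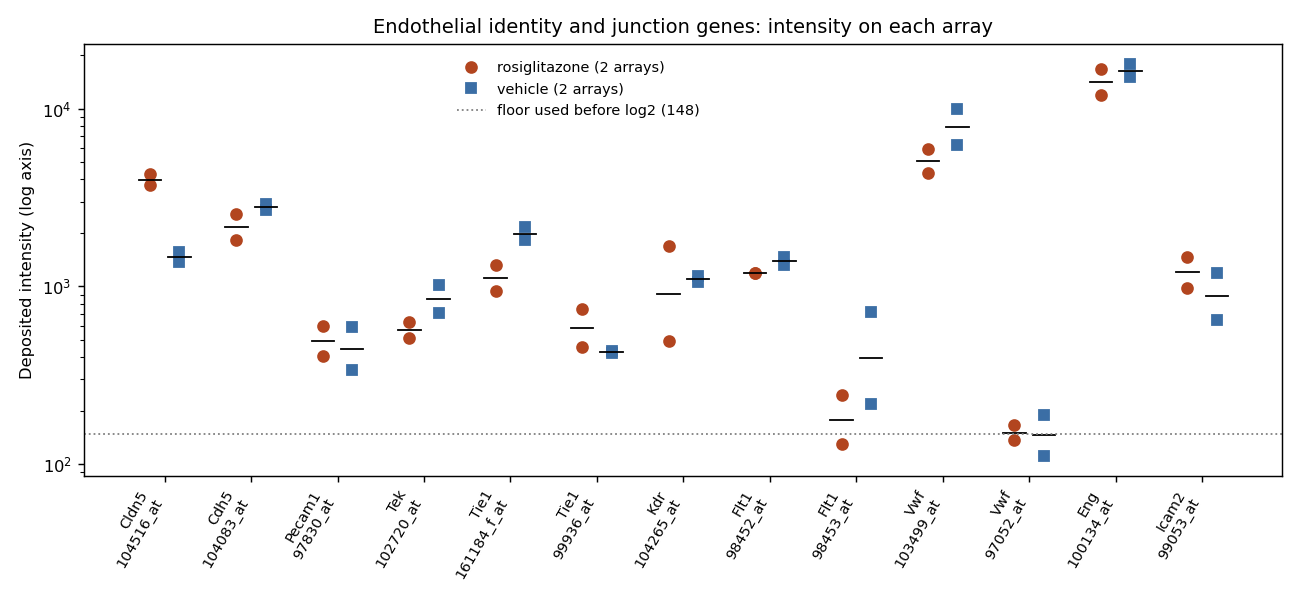
Deposited intensity (log axis) of the 13 probe sets on each array, with circles for the 2 rosiglitazone arrays, squares for the 2 vehicle arrays and short lines for geometric means. Both Cldn5 circles, at 4315 and 3704, lie above both squares, whereas the 2 circles of Kdr enclose its squares.

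Among the junction and adhesion proteins, Cldn5, the claudin that seals endothelial tight junctions, had intensities of 4315 and 3704 on the rosiglitazone arrays, against 1555 and 1369 on the vehicle arrays. The lower rosiglitazone array was 2.38-fold above the higher vehicle array, whereas arrays of 1 group differed by 1.16-fold with rosiglitazone and 1.14-fold with vehicle. Its mean log2 intensity was 11.96 ± 0.16 with rosiglitazone, against 10.51 ± 0.13 in the vehicle group (SD, n = 2 each). The log2 fold change was 1.45 with a standard error of 0.28 and a 95% interval of 0.82 to 2.09 (limma, adjusted p = 0.0780). It was the 51st smallest p of 7134, and 105 probe sets had a larger positive log2 fold change. The adjusted p ranged from 0.0691 to 0.672 over the 10 alternative settings and left-out arrays, none of which brought it past the threshold, and the log2 fold change ranged from 1.34 to 1.56.

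Cdh5, which encodes VE-cadherin of the adherens junction, had 1836 and 2567 with rosiglitazone, against 2907 and 2697 with vehicle. Both vehicle arrays were above both rosiglitazone arrays, by little: the log2 fold change was -0.37, with a 95% interval of -1.03 to 0.30 (adjusted p = 0.713). Pecam1, an immunoglobulin-type adhesion molecule at endothelial contacts that is also present on platelets and leukocytes, had 600 and 404 with rosiglitazone, against 338 and 590 with vehicle. Its groups overlapped, and the interval of its log2 fold change, -1.52 to 1.80, was too wide to place a direction. Icam2, an adhesion molecule that binds leukocyte integrins, had 1468 and 983 with rosiglitazone, against 1194 and 650 with vehicle. The groups overlapped here as well, and the log2 fold change of 0.45 had an interval of -0.61 to 1.51 (adjusted p = 0.786). It was 0.89 without vehicle replicate 3 and 0.0088 without vehicle replicate 4.

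Among the receptor kinases, Kdr, the main signalling receptor for VEGF-A, had 490 and 1686 with rosiglitazone, against 1065 and 1144 with vehicle. The rosiglitazone arrays differed from each other 3.44-fold and lay on both sides of the vehicle arrays. Its log2 fold change of -0.28 turned to 0.61 without rosiglitazone replicate 1 and was -1.17 without rosiglitazone replicate 2. Flt1, a high-affinity VEGF receptor that also acts as a decoy, had 1187 and 1186 with rosiglitazone, against 1468 and 1315 with vehicle on its brighter probe set. The 2 groups did not overlap there, and the log2 fold change was -0.23 with an interval of -1.03 to 0.58 (adjusted p = 0.862). Its dimmer probe set, not tested, had 129 and 245 with rosiglitazone, against 721 and 219 with vehicle, and these groups overlapped.

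Tek, the angiopoietin receptor, had 630 and 515 with rosiglitazone, against 711 and 1015 with vehicle. Both rosiglitazone arrays were the lower ones, and the log2 fold change was -0.58 with an interval of -1.78 to 0.63 (adjusted p = 0.756). Tie1, a related receptor that partners Tek, gave opposite directions on its 2 probe sets. The brighter one, whose suffix marks probes shared within a sequence family, had 1319 and 948 with rosiglitazone, against 1816 and 2168 with vehicle. That is a log2 fold change of -0.83 with an interval of -1.63 to -0.03 (adjusted p = 0.440), and the groups did not overlap. The dimmer one had 747 and 459 with rosiglitazone, against 433 and 422 with vehicle, and its groups did not overlap either. Its log2 fold change was 0.45 with an interval of -1.09 to 2.0 (adjusted p = 0.857). The level of Tie1 with rosiglitazone is therefore uncertain in direction.

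Eng, which encodes endoglin, had 11929 and 16782 with rosiglitazone, against 15023 and 17969 with vehicle. The groups overlapped, and the log2 fold change of -0.22 had an interval of -0.74 to 0.31 (adjusted p = 0.790). Vwf, the adhesive glycoprotein that endothelial cells and megakaryocytes store and that tethers platelets, had 4356 and 5969 with rosiglitazone, against 6260 and 10005 with vehicle on its brighter probe set. Both rosiglitazone arrays lay below both vehicle arrays, and the log2 fold change was -0.63 with an interval of -1.28 to 0.01 (adjusted p = 0.467). The other Vwf probe set lay near the floor on every array, at 165 and 137 with rosiglitazone, against 190 and 111 with vehicle.

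**Figure D2:**
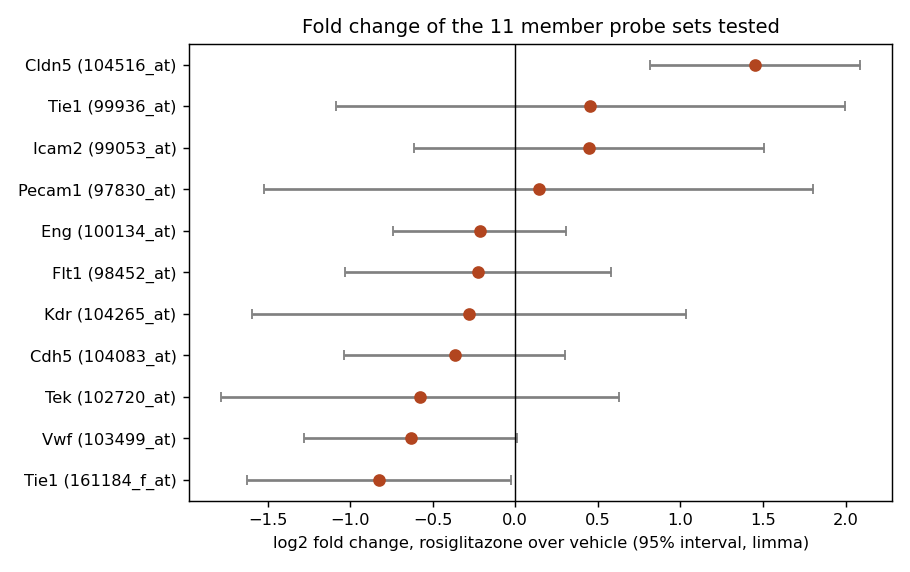
Log2 fold change of rosiglitazone over vehicle for the 11 member probe sets tested, with 95% intervals from limma. The interval of Cldn5 runs from 0.82 to 2.09, that of the brighter Tie1 probe set from -1.63 to -0.03, and those of the other 9 include 0.

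Spread between arrays differed among these genes. The median SD of the 11 member probe sets was 0.34 on the log2 scale between the rosiglitazone arrays and 0.18 between the vehicle arrays, where all 7134 probe sets had 0.29 and 0.25. With each probe set centred on its own mean, the median member deviation was -0.14 and -0.09 on the rosiglitazone arrays, against 0.03 and 0.19 on the vehicle arrays. The same median over all probe sets was 0.01 and 0.02 with rosiglitazone, against 0.05 and 0.03 with vehicle. Without rosiglitazone replicate 1 the median log2 fold change of the members was -0.13, and without rosiglitazone replicate 2 it was -0.43. Which rosiglitazone array was used thus moved the members' median by over 1.5 times.

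Any scaling error common to an array cancels when Cldn5 is set against another gene on the same array. The log2 ratio of Cldn5 to Cdh5 was 1.23 and 0.53 with rosiglitazone, against -0.90 and -0.98 with vehicle, a difference of 1.82. Against Eng it was -1.47 and -2.18 with rosiglitazone, against -3.27 and -3.71 with vehicle, a difference of 1.67. These ratios show unequal change between genes, and their levels are not comparable between probe sets. Over the 9 other genes the difference ran from 1.01 against Icam2 to 2.28 against Tie1, with a median of 1.73, with each gene on its brightest probe set, and for each of the 9 both rosiglitazone arrays lay above both vehicle arrays. Tie1 has the largest difference on that probe set alone: on its dimmer one the difference was 1.0, about that of Icam2. Cldn5 had the largest log2 fold change of the members, 1.45, so ratios that are higher with rosiglitazone follow largely from its own values. All 9 ratios share the Cldn5 values, so they are not separate observations. The two-sided exact permutation p was 0.33 for each, the smallest that 2 against 2 arrays can give.

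**Figure D3:**
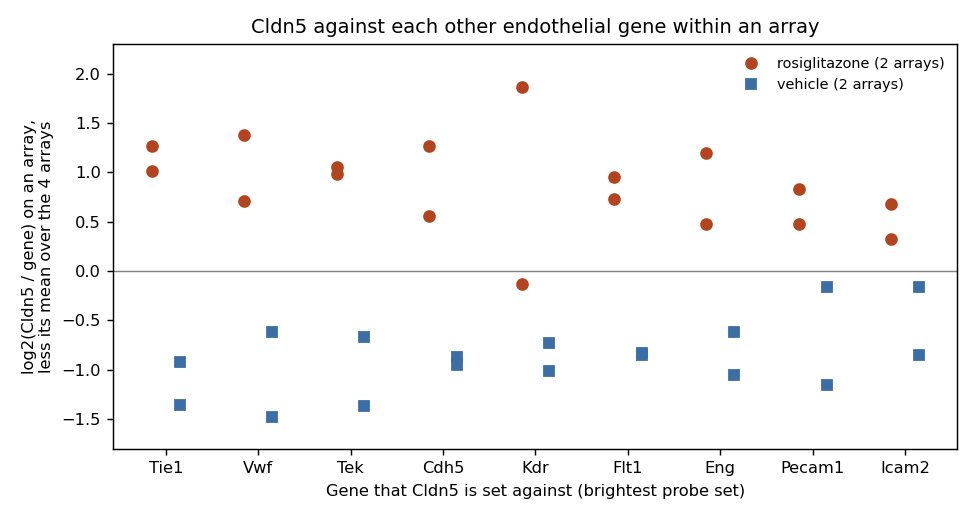
Log2 ratio of Cldn5 to each of the 9 other genes on each array, less its mean over the 4 arrays, with circles for rosiglitazone and squares for vehicle. The circles lie above the squares for every gene, and the difference between group means runs from 1.01 for Icam2 to 2.28 for Tie1 on its brighter probe set, against 1.0 on the dimmer Tie1 probe set, which is not plotted.

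The probe sets whose profile over the 4 arrays was most like that of Cldn5 were found by the root mean square difference of log2 values, each less its own mean, among 6392 probe sets with 1 symbol. The closest was Angptl4, a secreted inhibitor of lipoprotein lipase, at 0.048, with 2676 and 2399 on the rosiglitazone arrays, against 968 and 808 on the vehicle arrays. Next was Slc4a4, a sodium bicarbonate cotransporter, at 0.087, with 5467 and 4881 with rosiglitazone, against 2302 and 1934 with vehicle. Dlx6os2 at 0.10, the sialyltransferase gene St3gal4 at 0.12 and Rps6kb2, which encodes a ribosomal protein S6 kinase, at 0.12 followed. No member was as close: the nearest were the dimmer Tie1 probe set at 0.53 and Icam2 at 0.57. With 4 arrays this likeness is mostly the size of the group difference.

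RefSeq promoter windows (GRCm38.p6) matched 6 of the 10 genes, namely Cldn5, Tek, Tie1, Kdr, Flt1 and Eng, and not Cdh5, Pecam1, Vwf and Icam2. The 250 bases upstream of the start are printed for the 3 whose window begins at the outermost annotated start of the gene, to set Cldn5 beside Eng, whose groups overlapped, and Tie1, whose probe sets disagreed. Capitals mark GGAA on either strand (TTCC when read on the strand shown), the core that ETS factors bind, a family with central roles in endothelium.
Cldn5, chr16:18776597-18776846, plus strand: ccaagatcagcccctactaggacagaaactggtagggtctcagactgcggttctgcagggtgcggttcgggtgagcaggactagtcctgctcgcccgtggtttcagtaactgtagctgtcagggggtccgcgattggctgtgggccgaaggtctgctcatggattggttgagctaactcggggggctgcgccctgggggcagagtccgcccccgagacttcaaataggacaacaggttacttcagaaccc
Tie1, chr4:118489850-118490099, minus strand: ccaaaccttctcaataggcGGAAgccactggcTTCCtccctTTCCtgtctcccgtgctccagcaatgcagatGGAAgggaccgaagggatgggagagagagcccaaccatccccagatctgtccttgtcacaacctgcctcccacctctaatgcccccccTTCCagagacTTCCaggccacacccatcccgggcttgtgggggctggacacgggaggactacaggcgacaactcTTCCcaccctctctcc
Eng, chr2:32646345-32646594, plus strand: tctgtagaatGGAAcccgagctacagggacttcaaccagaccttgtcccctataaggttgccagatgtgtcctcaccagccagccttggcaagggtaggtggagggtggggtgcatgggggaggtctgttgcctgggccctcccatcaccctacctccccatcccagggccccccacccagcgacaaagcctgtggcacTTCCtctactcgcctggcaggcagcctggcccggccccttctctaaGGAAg

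The Cldn5 window held 0 matches to GGAA, against 7 in Tie1, 3 in Eng, 2 in Tek and 4 each in Kdr and Flt1. Among 32536 different windows of this length 93.4% held at least 1 match, with a median of 3, and 6.57% held none. The longer form CCGGAA, which contains GGAA, was found once (1 match) in Kdr and in 0 of the other 5 windows, against 12.1% of all windows. The GATA-type motif AGATAA was in 0 of the 6, against 9.97% of all. The nuclear receptor half-site AGGTCA was in 0 of the 6, against 14% of all, and so was its direct repeat AGGTCANAGGTCA, the form bound by PPAR with RXR, against 0.0338% of all. All searches covered both strands, and a missing match says only that these letters are not in these windows.

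The ligands and partners of the VEGF and angiopoietin receptors lay on both sides of 0. Of 16 listed genes 11 were tested, with 5 above 0, 6 below 0 and a median log2 fold change of -0.05, where all 5466 genes tested had -0.02. None (0) passed the adjusted threshold in limma and 1 was higher at an unadjusted p under 0.05, against 5.12% of all probe sets. That gene was Vegfb, a ligand of Flt1, at 12508 and 13107 with rosiglitazone, against 7700 and 9513 with vehicle (log2 fold change 0.58, adjusted p = 0.356). Nrp1, a co-receptor of Kdr, had 15352 and 10071 with rosiglitazone, against 9793 and 8484 with vehicle. Both genes had the 2 rosiglitazone arrays on top. Vegfd, a VEGF-family ligand, had 149 and 815 with rosiglitazone, against 829 and 1385 with vehicle, and the adaptor gene Dok2 had 188 and 1219 with rosiglitazone, against 1301 and 1000 with vehicle. For these last genes rosiglitazone replicate 1 was far below the other rosiglitazone array.

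Partners of endoglin, the TGF-β and BMP receptors, SMAD proteins and their Id target genes, had 8 of 15 listed genes tested, 4 above 0 and 4 below 0, with a median of 0.06. None (0) passed in limma, and 2 were lower at an unadjusted p under 0.05, against 5.76% of all probe sets. They were Smad7, an inhibitory SMAD, at 776 and 437 with rosiglitazone, against 1607 and 1348 with vehicle (log2 fold change -1.34, adjusted p = 0.338), and Id2, at 6333 and 3489 with rosiglitazone, against 7764 and 9518 with vehicle (-0.87, adjusted p = 0.326). Smad1, a signalling SMAD of the BMP branch, had 1458 and 1337 with rosiglitazone, against 2151 and 2072 with vehicle. Tgfbr3, the co-receptor betaglycan, had 967 and 473 with rosiglitazone, against 160 and 424 with vehicle. Groups did not overlap for any of these 4 genes, which were named for having the smallest p of the list. Among the 8 tested, groups did not overlap for 2 that were higher and 3 that were lower, against 19.0% and 21.8% of all probe sets. Id3, the brightest of the list with Id2, had 8842 and 6267 with rosiglitazone, against 7732 and 5250 with vehicle, with overlap.

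Junction partners had 13 of 26 listed genes tested, 6 above 0 and 7 below 0, with a median of -0.30. None (0) passed in limma, and 1 of 13 was higher at an unadjusted p under 0.05, near the 5.12% of all probe sets. This was Nectin2, an adhesion molecule of adherens junctions, at 4861 and 5157 with rosiglitazone, against 2375 and 3071 with vehicle (log2 fold change 0.89, adjusted p = 0.215). Ctnnb1, the β-catenin that binds cadherin tails, had 5808 and 6884 with rosiglitazone, against 8331 and 9518 with vehicle. Ctnnd1, p120-catenin, which steadies cadherins at the membrane, had 8407 and 11192 with rosiglitazone, against 11298 and 12545 with vehicle. Both catenins were lower on both rosiglitazone arrays without passing (log2 fold changes -0.49 and -0.30). Another claudin, Cldn3, which is found mainly in epithelia, had 229 and 371 with rosiglitazone, against 988 and 720 with vehicle. The direction was opposite to that of Cldn5 (log2 fold change -1.53, adjusted p = 0.469). Both rosiglitazone values of Cldn3 lay under the brightness limit of 414, which applies to the mean over all arrays, so the size of this difference is uncertain. With the floor at the 40th percentile the log2 fold change of Cldn3 was -1.03. The gap junction gene Gja1 had 8975 and 6887 with rosiglitazone, against 10736 and 10041 with vehicle. Its probe set has the suffix that marks probes shared within a sequence family. In the whole list of 13 tested, 3 genes were higher and 5 lower without overlap, against 19.0% and 21.8% of all probe sets.

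Other endothelial markers had 19 of 33 listed genes tested, of which 2 lay above 0 and 17 below 0, with a median of -0.42, where 51.9% of all probe sets lay below 0. None (0) passed the adjusted threshold in limma. At an unadjusted p under 0.05, 1 was higher and 2 were lower, against 5.12% and 5.76% of all probe sets. Cd34, a sialomucin of endothelium that progenitor cells and some fibroblasts also carry, had 1072 and 1251 with rosiglitazone, against 3427 and 2786 with vehicle (log2 fold change -1.42, standard error 0.31, adjusted p = 0.105). Efnb2, the arterial ligand ephrin-B2, had 693 and 52 with rosiglitazone, against 1145 and 1462 with vehicle, with rosiglitazone replicate 2 under the floor. In the other direction Fabp5, a fatty acid binding protein that adipocytes and macrophages also make, had 7284 and 6009 with rosiglitazone, against 3277 and 4388 with vehicle (log2 fold change 0.80, adjusted p = 0.266). Emcn, the sialomucin endomucin, had 2570 and 2710 with rosiglitazone, against 3452 and 4597 with vehicle, lower on both rosiglitazone arrays (log2 fold change -0.59, adjusted p = 0.467). Cav1, the caveola protein caveolin-1, had 16744 and 10046 with rosiglitazone, against 16659 and 18506 with vehicle, with overlap, and Ly6e had 30694 and 46206 with rosiglitazone, against 49508 and 58181 with vehicle, without. The Ly6e probe set has the suffix that marks probes shared within a sequence family. Over the 19 markers tested, 1 was higher and 8 lower without overlap, against 19.0% and 21.8% of all probe sets.

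Endothelial transcription factors had 17 of 26 listed genes tested, 7 above 0 and 10 below 0, with a median of -0.27 and 0 past the adjusted threshold in limma. At an unadjusted p under 0.05, 1 of 17 was lower, near the 5.76% of all probe sets. This was Gata2, a GATA factor of endothelial and blood cells, at 739 and 1387 with rosiglitazone, against 1991 and 2002 with vehicle (log2 fold change -0.98, adjusted p = 0.415). The SOX factor gene Sox17 had 1973 and 2200 with rosiglitazone, against 689 and 1614 with vehicle, and its relative Sox18 had 3977 and 4758 with rosiglitazone, against 3440 and 3054 with vehicle. Both were higher on both rosiglitazone arrays without passing (log2 fold changes 0.98 and 0.42), and that of Sox17 was 0.37 without vehicle replicate 3 and 1.60 without vehicle replicate 4. The Sox18 probe set has the suffix that marks probes shared within a sequence family. Lmo2, a bridging factor of endothelial and blood development, had 1979 and 3290 with rosiglitazone, against 4605 and 3653 with vehicle, and Klf4, a factor induced by shear stress, had 1976 and 1484 with rosiglitazone, against 2983 and 2425 with vehicle. These were lower on both rosiglitazone arrays (log2 fold changes -0.68 and -0.65). Of the 17 factors tested, 3 were higher and 6 lower without overlap, against 19.0% and 21.8% of all probe sets.

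**Figure D4:**
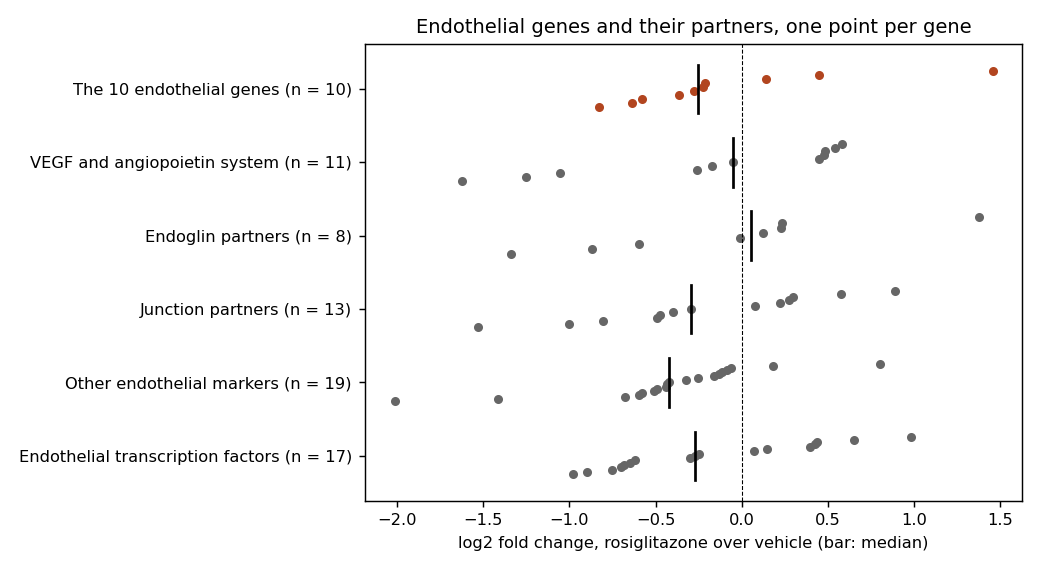
Log2 fold change of rosiglitazone over vehicle for the 10 endothelial genes and for each tested gene of the 5 wider lists (brightest probe set of a gene, bars at medians). Cldn5, at 1.45, is the rightmost point of the top row, and the medians of the wider lists run from -0.42 for other endothelial markers to 0.06 for endoglin partners.

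Markers of other cells in the extract were set beside these values as sums of intensity over the brightest probe set of each marker, in which bright markers weigh most. The 10 endothelial genes themselves summed to 28130 and 34744 with rosiglitazone, against 32337 and 38922 with vehicle, with overlap. Smooth muscle markers (9 genes) summed to 62070 and 70225 with rosiglitazone, against 126987 and 151334 with vehicle. Brown adipocyte markers (9 genes) summed to 412321 and 450320 with rosiglitazone, against 296339 and 291518 with vehicle, and white adipocyte markers (6 genes) to 254578 and 285263 with rosiglitazone, against 197087 and 215016 with vehicle. Brown adipocyte markers were thus higher in sum and smooth muscle markers lower on both rosiglitazone arrays, on which Cldn5 was higher. The brown adipocyte markers tested lay above 0 in 6 of 7 genes, where 51.9% of all probe sets lay below 0. Only Fabp3 of these 7 passed the adjusted threshold in limma (adjusted p = 0.0240), against 0.364% of all probe sets. Cidea, the brightest, did not (limma, adjusted p = 0.553), and Dio2 was lower without overlap. White adipocyte markers lay above 0 in 3 of 6, with a median log2 fold change of -0.03, so the higher white adipocyte sum did not hold gene by gene. Platelet and megakaryocyte markers (5 genes), which bear on Vwf, Pecam1 and Icam2, summed to 1860 and 4302 with rosiglitazone, against 5303 and 6205 with vehicle, without overlap. Of these, 3 were tested and all lay below 0. Only 1 of the 3, Gp1bb, was lower without overlap, where 21.8% of all probe sets were. It had 461 and 812 with rosiglitazone, against 1807 and 2548 with vehicle. Gp9 and Gp5 overlapped, so the separation of the sums did not hold gene by gene. Macrophage and neutrophil markers (10 genes) summed to 21783 and 22799 with rosiglitazone, against 179205 and 250460 with vehicle. The vehicle sums were mostly S100a8, at 76047 and 131937, and S100a9, at 45381 and 55514. Log2 fold changes were -6.39 for S100a8, -5.57 for S100a9 and -2.93 for Cd14, and ran from -0.59 for Csf1r to -1.43 for Cd68 among the rest. All 10 were lower without overlap, against 21.8% of all probe sets. Their median was -1.19, so the size of the drop in the sum did not hold gene by gene. Fibroblast markers (8 genes) were lower too, at 94140 and 110076 with rosiglitazone, against 146734 and 175345 with vehicle, as were lymphocyte markers (7 genes), at 4614 and 3952 with rosiglitazone, against 6266 and 6133 with vehicle. Of the lymphocyte markers 4 were tested and lay below 0, with 2 lower without overlap, against 21.8% of all probe sets. Ms4a1, the brightest of the 4, had 2269 and 2062 with rosiglitazone, against 2224 and 2241 with vehicle, with overlap. Erythrocyte markers (6 genes, 507470 and 669832 with rosiglitazone, against 564339 and 658452 with vehicle) and Schwann cell markers (4 genes, 6469 and 5090 with rosiglitazone, against 6032 and 5201 with vehicle) overlapped between the groups. The erythrocyte sum was mostly Hba-a1, at 467487 and 616423 with rosiglitazone, against 493863 and 569180 with vehicle. Gene by gene, 3 of the 5 erythrocyte markers tested were lower without overlap, against 21.8% of all probe sets. The other 2 lay above 0 with overlap, and the median log2 fold change was -0.73. In these lists 0 markers lay under the floor on all 4 arrays, and the part of these cells in the endothelial values was not tested.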

How the data were processed

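The authors deposited 1 table of hybridisation intensity values, whole numbers on a linear scale for 12488 probe sets on 4 arrays. The software behind them and the genome build are not given in the sources used here. Array medians differed by 0.13 on the log2 scale at most, under the limit of 0.2, so arrays were not rescaled. Control probe sets (66) were left out. Intensities were floored at 148 (the 20th percentile), and log2 was taken. Probe sets were kept at a mean log2 intensity of at least the 40th percentile (414). Groups were compared with limma 3.58.1 in R 4.3.3 (lmFit, eBayes with an intensity trend; two-sided; 2 residual degrees of freedom, prior median 7.14), with Benjamini-Hochberg adjustment over 7134 probe sets, and the fit was tested on simulated data. Symbols came from the platform's probe table, updated through identifiers in RefSeq's table of GRCm38.p6. Depth does not apply to arrays; their number limits precision. Members, lists and rules were chosen with earlier results of these data known. From each wider list the text names genes past the threshold, the 4 with the smallest p and the 2 brightest. Alternatives were other scalings, floors, filters and variance priors, and leaving out each array.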

Additional observations from a re-analysis of the deposited data

How the results depend on the processing

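No member probe set (0) passed the adjusted threshold under any of the 10 alternatives run. The number passing among all probe sets, 26, was 17 with arrays centred on their medians and 17 with no floor above 1. It was 7 in limma without the intensity trend, and 0 with the floor at the 40th percentile or with no filter on dim probe sets, where 933 and 1202 of 12422 had an unadjusted p under 0.05. It ranged from 1 to 78 with 1 array left out, at 1 without vehicle replicate 3 or vehicle replicate 4, 47 without rosiglitazone replicate 1 and 78 without rosiglitazone replicate 2. With 3 arrays the lone array of a group is assumed to vary like the others. The median log2 fold change of the members ranged from -0.43 to -0.13 with 1 array left out, and the median within-array difference of Cldn5 from 1.49 to 2.03. The median over the 68 wider-list probe sets, -0.26, was -0.18 with median centring, -0.18 with quantile normalization and -0.15 with the higher floor, and ranged from -0.28 to -0.15 with 1 array left out. Each array was left out in turn for the 36 member and named probe sets only, not gene by gene for the rest of the wider lists. Of these 36, signs turned for 5, and 19 kept their sign but moved by over 1.5 times, none of them a called value and Cldn5 not among them. Pecam1 ranged from -0.26 (without vehicle replicate 3; -0.14 without rosiglitazone replicate 1) to 0.54. Without rosiglitazone replicate 1 and without rosiglitazone replicate 2, Kdr had 0.61 and -1.17, Eng 0.031 and -0.46, and Dok2 0.096 and -2.60. Id3 ranged from -0.055 (without vehicle replicate 4; -0.024 without rosiglitazone replicate 1) to 0.50. The cause was not tested. No paired analysis was possible because the groups share no replicate number. Signal over background cannot be judged without detection calls, which limits the dim probe sets of Vwf and Flt1 to a description.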
